A study of Mus musculus with 8 samples.

Results

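Transcript levels of 10 genes of actin filament assembly, Cotl1, Cfl1, Pfn1, Tmsb4x, Actb, Coro1a, Arpc2, Arpc3, Arpc5 and Lcp1, were examined in monocyte-derived dendritic cells from the inflamed central nervous system. All 10 were found by symbol among the 12256 genes of the deposited table. They were picked with the difference between the treatment groups already known: Cotl1 was known to be lower in 1 group, and the others were taken as further actin-binding or actin genes in order to ask whether its difference was shared. Their differences between groups are therefore given as a description, without a test of their own. Cells came from C57Bl/6 mice with experimental autoimmune encephalomyelitis (EAE), a disease resembling multiple sclerosis that was raised in every animal by immunization with MOG35-55, a myelin peptide. At the peak of disease the mice received 1000000 neural precursor cells (NPC) in 10 μL of PBS, or 10 μL of PBS alone, by the intrathecal route. The series text places this 2 to 4 days after clinical onset, and the sample labels give 4 days. Hindbrain and spinal cord were taken 7 days later and digested with collagenase, and cells were sorted as CD45-high, CD11b+, Ly6G-, Ly6C+, CD11c-intermediate and MHC class II+. The NPC group had 4 libraries (A to D) and the PBS group 4 (1 to 4). Each was made from a pool of 4 to 7 mice, so a library is a mean over animals.

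Actin shuttles between single molecules (G-actin) and filaments (F-actin), and dendritic cells rebuild this network without pause as they crawl, take up antigen and form contacts with T cells. Profilin and thymosin β4 hold the pool of single molecules, the Arp2/3 complex starts branches, cofilin severs old filaments, and coronin and plastin act on finished branches and bundles. Coactosin-like protein 1, the product of Cotl1, belongs to the same protein fold family as cofilin. It binds filaments rather than single molecules and also binds 5-lipoxygenase, the enzyme that begins leukotriene synthesis.

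The values are log2 normalised expression scaled to library size and not divided by gene length. NPC libraries held 2653818 to 7003542 recovered reads, against 7702189 to 21068166 in PBS libraries. Depth was thus higher in every PBS library, on average 3.21 times (exact permutation test, two-sided, p = 0.0286, which is the lowest value this design can give), and by design cannot be told apart from treatment. The NPC A and PBS 1 libraries stood apart on the first principal component, with scores of -44.3 and -36.2, against 1.98 to 26.0 in the other 6. Fos, an immediate-early gene, was at 8.28 in NPC A and 7.95 in PBS 1, and at 9.65 to 10.18 elsewhere. The differences of Cotl1, Cfl1 and Pfn1 and the closest within-group correlations are also given without both. The labelled cell type was checked against 8 monocyte and dendritic cell markers, all of which were in the table: their summed level was 14.67 to 15.09 in NPC libraries, against 14.47 to 14.999 in PBS libraries. The sum was taken on the linear scale and was led by Lyz2, at 14.13 in NPC and 14.09 in PBS libraries (means). It therefore says little about the lower markers. Of the genes that encode sort markers, Ptprc was at 9.73 and 9.71, Itgam at 10.51 and 10.56, Itgax at 7.32 and 7.38, H2-Ab1 at 11.96 and 11.91 and Ly6c2 at 8.53 and 8.64 (means of the NPC and the PBS libraries).

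Sequence around the start sites was looked up in RefSeq (GRCm38.p6), in windows that ran from 250 bases before to 30 bases after each start. Of the 10 genes, 8 matched with 10 windows, and Cotl1 and Actb did not. The 4 windows printed here belong to genes whose levels varied as pairs within the groups, Cfl1 with Pfn1 and Tmsb4x with Arpc5, as described further on. Capitals mark each GC box, searched as GGGCGG on both strands, so that it reads CCGCCC where it lies on the opposite strand.
Cfl1 (chr19:5490205-5490484, plus strand): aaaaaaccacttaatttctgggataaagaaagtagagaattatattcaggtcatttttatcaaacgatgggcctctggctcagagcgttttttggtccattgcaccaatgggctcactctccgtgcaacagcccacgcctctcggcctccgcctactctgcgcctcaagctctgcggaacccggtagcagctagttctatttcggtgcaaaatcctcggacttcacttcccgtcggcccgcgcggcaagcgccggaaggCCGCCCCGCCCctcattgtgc
Pfn1 (chr11:70654621-70654900, minus strand): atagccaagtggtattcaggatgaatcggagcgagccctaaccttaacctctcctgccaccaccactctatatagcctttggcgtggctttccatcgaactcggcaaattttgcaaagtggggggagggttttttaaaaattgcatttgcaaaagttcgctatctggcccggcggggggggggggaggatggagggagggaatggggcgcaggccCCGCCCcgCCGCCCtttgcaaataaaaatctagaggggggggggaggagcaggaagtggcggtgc
Tmsb4x (chrX:167209189-167209468, minus strand): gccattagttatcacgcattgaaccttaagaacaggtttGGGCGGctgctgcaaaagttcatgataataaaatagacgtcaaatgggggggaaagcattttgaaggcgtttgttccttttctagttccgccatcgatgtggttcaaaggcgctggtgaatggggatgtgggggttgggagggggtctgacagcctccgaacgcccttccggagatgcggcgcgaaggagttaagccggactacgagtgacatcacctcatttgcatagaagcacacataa
Arpc5 (chr1:152766292-152766571, plus strand): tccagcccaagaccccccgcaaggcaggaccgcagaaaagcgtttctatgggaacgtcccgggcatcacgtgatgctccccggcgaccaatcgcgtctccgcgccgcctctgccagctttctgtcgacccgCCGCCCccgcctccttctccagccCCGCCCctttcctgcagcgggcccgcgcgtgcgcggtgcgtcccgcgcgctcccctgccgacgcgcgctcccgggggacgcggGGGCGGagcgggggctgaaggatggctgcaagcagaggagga
The Cfl1 window held 2 GC boxes, which overlap, and the Pfn1 window also held 2. Tmsb4x had 1 and Arpc5 had 3. The motif was present in 8 of the 10 windows, against 60.2% of 10728 windows of the table's genes and 34.7% of all 32851 windows. Counted by gene, at least 1 window of each of the 8 matched genes held it. No share by gene was taken over the table, and the shares by window cannot stand in for it. The CArG box, the site of serum response factor, whose cofactors sense free actin, was in 0 of the 10 windows and in 1.18% of those of the table's genes. The CCAAT box (CCAAT, both strands) was in the windows of Cfl1 and Arpc5, and in 36.8% of those of the table's genes. The TATA box (TATAAA, both strands) was in none of the 10 and in 6.76%. A match describes these letters in these windows only.

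Cotl1 was lower in dendritic cells of NPC-treated mice in every library. It was at 5.24, 5.50, 5.42 and 5.17 in NPC A to D, against 6.09, 5.78, 5.89 and 5.81 in PBS 1 to 4. The highest NPC library, B, lay below the lowest PBS library, 2, so the groups did not overlap. Means were 5.33 ± 0.15 in NPC and 5.89 ± 0.14 in PBS libraries (SD, n = 4 each), a log2 fold change of -0.56 (SE 0.12), or 0.677 times the PBS level. Behind these values stand 115 to 237 reads per NPC library, against 506 to 1079 per PBS library. With every library thinned to the depth of the shallowest, the log2 fold change was -0.50. Groups that did not overlap were found for 6.78% of the table in either direction and for 3.25% (398 genes) with NPC lower, and nothing is read from Cotl1 being among them, since it was picked on this contrast. In GENCODE vM21 (GRCm38) the gene lies on chromosome 8 from 119809222 to 119840544 on the minus strand, introns included, and no other annotated gene shares its exon bases. Without NPC A and PBS 1 the log2 fold change was -0.47. In bulk RNA such as this, fewer cells of a kind and less RNA per cell cannot be told apart. Of the T cell markers 7 of 8 were higher in NPC libraries, where 6440 of all 12256 genes were. Their summed level was 6.31 to 6.76 there and 6.01 to 6.22 in PBS libraries. Cd3e averaged 4.50 ± 0.23 in NPC libraries, against 4.06 ± 0.20 in PBS libraries (SD, n = 4 each). Cd3g, of the same receptor complex, had a log2 fold change of -0.07. Microglial markers were higher in NPC libraries for 6 of 6 genes, with summed levels of 7.17 to 8.03 there and 6.99 to 7.80 in the PBS libraries. So were 4 of 5 neutrophil, 2 of 3 B cell and 2 of 5 neural markers found. None of these markers passed at an adjusted p under 0.05. The part of these cells in the Cotl1 difference was not tested.

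**Figure D1:**
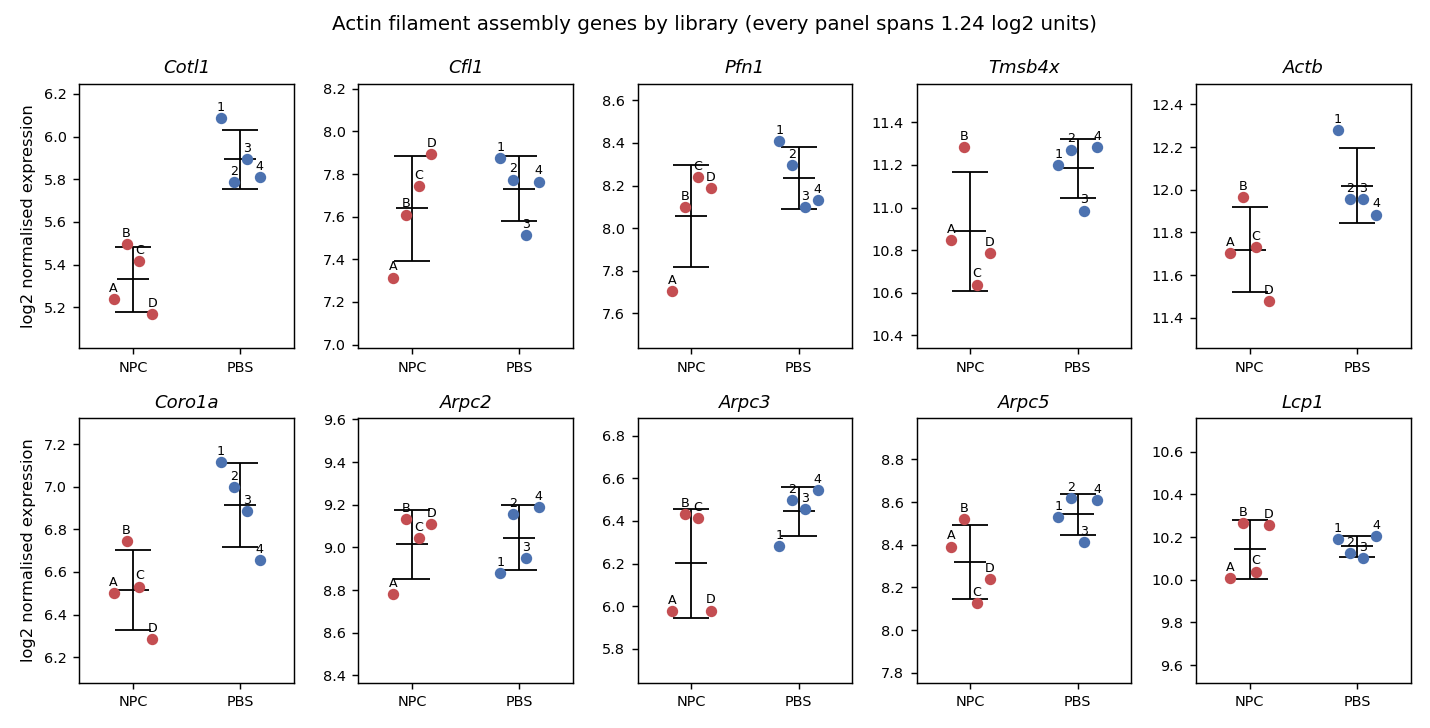
Log2 normalised expression of the 10 genes (vertical axes) in each NPC library (A to D, red, left) and PBS library (1 to 4, blue, right), with the mean and 1 SD as black bars (n = 4 each). Every panel spans the same range, and in the Cotl1 panel alone the groups do not overlap.

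The other 9 genes also had lower means in NPC libraries, by less than Cotl1, and the groups overlapped for each of them. Their log2 fold changes ran from -0.40 (Coro1a) to -0.01 (Lcp1). Over all 10 genes 10 were below 0, with a median of -0.23, where 47.5% of all 12256 genes were below 0 and their median was 0.02. A log2 fold change of -0.2 or less was found for 6 of the 10 and for 20.8% of all genes. No member of the set passed a Benjamini-Hochberg adjusted p of 0.05 in limma, where 0 genes of the table (0%) were called and no adjusted p was below 0.382. Without adjustment, 1387 genes had a limma p under 0.05. With limma's voom weights on the recovered reads 0 genes were called as well, and 1576 had an unadjusted p under 0.05. An unadjusted p under 0.05 was found for Cotl1 and Coro1a, and for 11.3% of all genes, or 5.32% on the lower side. As the 10 were chosen on this contrast, nothing is read from these counts. The count below 0 depended on NPC A: without that library 7 of the 10 were below 0, and without NPC A and PBS 1 together 8 were.

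Of Tmsb4x, Pfn1 and Cfl1, Tmsb4x differed most and Cfl1 least. Tmsb4x encodes thymosin β4, which sequesters G-actin. It was at 10.85, 11.28, 10.64 and 10.78 in NPC A to D, against 11.20, 11.27, 10.99 and 11.28 in PBS 1 to 4. NPC B lay level with PBS 4 at the top, and the other 3 NPC libraries lay below every PBS library. This gave a log2 fold change of -0.30 (SE 0.17), and -0.43 without NPC B. Pfn1, which encodes profilin 1, the protein that loads ATP-actin onto growing ends, was at 7.71, 8.10, 8.24 and 8.19 in NPC A to D and 8.41, 8.30, 8.10 and 8.13 in PBS 1 to 4. NPC A was the lowest of the 8, and the other 3 NPC libraries lay within the PBS range. The log2 fold change of -0.18 (SE 0.14) was -0.06 without NPC A and -0.0008 without NPC A and PBS 1 together.

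Cfl1, the gene of cofilin 1, was at 7.31, 7.61, 7.74 and 7.89 in NPC A to D, against 7.87, 7.77, 7.52 and 7.76 in PBS 1 to 4. NPC A was the lowest and NPC D the highest of the 8, so the NPC libraries spread around the PBS range. The log2 fold change was -0.09 (SE 0.14), turned to 0.02 without NPC A, and was 0.06 without NPC A and PBS 1. Annotated pseudogenes share at least 150 bases with the Cfl1 transcript at 90% identity or more in 8 cases, so that reads of this gene cannot all be assigned with certainty. The same search found 2 for Lcp1, 1 each for Actb, Arpc2 and Arpc5, and 0 for the remaining 5 genes.

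Actb, the gene of cytoplasmic β-actin, was at 11.70, 11.96, 11.73 and 11.48 in NPC A to D, against 12.28, 11.96, 11.96 and 11.88 in PBS 1 to 4. NPC B reached the level of PBS 2 and 3, and the other 3 NPC libraries lay below all PBS libraries. The log2 fold change was -0.30 (SE 0.18), and -0.21 without PBS 1, the highest library. Actg1, which encodes the nearly identical γ-actin and can share reads with Actb, averaged 4.53 ± 0.22 in NPC libraries, against 4.86 ± 0.02 in PBS libraries (SD, n = 4 each).

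The 3 Arp2/3 subunits had log2 fold changes of -0.24 to -0.03 with overlapping 95% intervals, and were not tested against each other. Arpc5, a small subunit at the edge of the complex, was at 8.39, 8.52, 8.13 and 8.24 in NPC A to D, against 8.53, 8.62, 8.41 and 8.61 in PBS 1 to 4. NPC B alone reached into the PBS range, and the log2 fold change was -0.22 (SE 0.12). Arpc3 was at 5.98, 6.43, 6.41 and 5.98 in the NPC libraries and 6.28, 6.50, 6.46 and 6.54 in the PBS libraries. NPC A and D were low, and NPC B and C lay within the PBS range (log2 fold change -0.24, SE 0.14). Arpc2, which with Arpc4 forms the core of the complex, was at 8.78, 9.13, 9.04 and 9.11 in NPC A to D and 8.88, 9.16, 8.95 and 9.19 in PBS 1 to 4. Its log2 fold change was -0.03 (95% interval -0.31 to 0.25) and changed sign without NPC A (0.05), PBS 2 (0.01) or PBS 4 (0.02).

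Of Coro1a and Lcp1, whose products act on built filaments, Coro1a had the lower value and Lcp1 lay near 0. Coronin 1A, the leukocyte coronin encoded by Coro1a, works on Arp2/3 branches and on filament turnover. Coro1a was at 6.50, 6.75, 6.53 and 6.28 in NPC A to D, against 7.12, 7.00, 6.88 and 6.66 in PBS 1 to 4. The overlap came from NPC B and PBS 4 alone, and the log2 fold change was -0.40 (SE 0.13), from -0.48 to -0.32 with single libraries left out. Exons of Coro1a overlap those of Bola2 on the other strand, and the strand setting of the counting is not given in the sources used here. Lcp1 encodes L-plastin, the bundling protein of leukocytes. It was at 10.01, 10.26, 10.04 and 10.26 in NPC A to D, against 10.19, 10.13, 10.10 and 10.21 in PBS 1 to 4. The NPC libraries lay on both sides of the PBS range, with a log2 fold change of -0.01 (95% interval -0.29 to 0.27).

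The 95% interval of the Cotl1 difference ran from -0.83 to -0.30. The lower ends of the other 9 intervals ran from -0.70 (Actb) to -0.29 (Lcp1). Intervals of 2 genes, Cotl1 and Coro1a, lay wholly below 0. Each of the 10 intervals lay above -1. Set against the mean of the other 9 genes in the same library, Cotl1 stood at -3.34, -3.40, -3.31 and -3.52 log2 units in NPC A to D and at -2.89, -3.18, -2.92 and -3.11 in PBS 1 to 4. The group means of this quantity differed by -0.37, and those of the mean of the other 9 by -0.20. Cotl1 was picked for its low value in this contrast, which favours such a difference in advance, so these values are a description and no separate evidence.

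**Figure D2:**
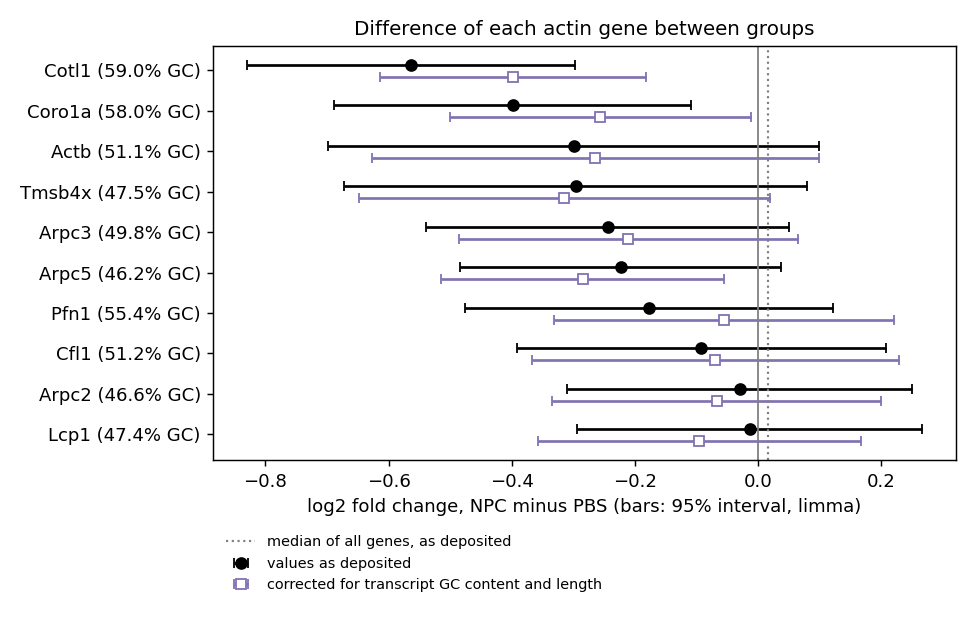
Log2 fold change, NPC minus PBS (horizontal axis), of the 10 genes, ordered from the lowest, with 95% intervals from limma (n = 4 each), for the deposited values (black circles) and after correction for transcript GC content and length (open squares). The intervals of Cotl1 and Coro1a lie below 0 in both, and that of Arpc5 after correction only, while the correction brings Cotl1 to -0.40 and Coro1a to -0.26.

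Base composition moved with the differences. Cotl1 and Coro1a have the most GC-rich transcripts of the 10, at 59.0% and 58.0%, against 46.2% for Arpc5 at the other end. Across 11368 genes with an annotated transcript the log2 fold change followed GC content (Spearman rho -0.37 across genes, which are not independent replicates). Genes were ranked by GC content and cut into 10 bins of equal size. In the most GC-rich bin, which holds Cotl1 and Coro1a, the median log2 fold change was -0.14 and 71.6% were below 0. The bin that holds Tmsb4x, Arpc2, Arpc5 and Lcp1 had a median of 0.06, with 38.6% below 0. After each library was corrected for GC content and transcript length, Cotl1 was at -0.40 (SE 0.10), Coro1a at -0.26 (SE 0.11), Arpc5 at -0.28 (SE 0.11) and Tmsb4x at -0.31 (SE 0.15). Pfn1 was at -0.06 (SE 0.13). The median over the 10 was -0.23 here too, and that over all corrected genes was -0.03. None of the corrected differences passed over the table, where 0 genes were called.

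Levels divided by transcript length, which allows genes to be compared, spread widely. In normalised reads per kilobase, on the linear scale, Tmsb4x averaged 2225 ± 456 in NPC libraries, against 2702 ± 248 in PBS libraries (SD, n = 4 each). Actb followed at 1769 ± 245 in NPC libraries, against 2174 ± 280 in PBS libraries, and with these lengths Tmsb4x lay above Actb in each of the 8 libraries. Arpc2 (361 ± 38.4 in NPC), Pfn1 (312 ± 48.5) and Lcp1 (295 ± 27.99) came next, and within the NPC group neighbours in this order did not differ beyond their spread. Arpc5 followed at 168 ± 20.004 in NPC libraries, against 195 ± 12.6 in PBS libraries. Cfl1 (85.6 ± 14.1 in NPC) and Arpc3 (82.8 ± 14.6) exchanged places in PBS libraries (90.7 ± 9.23 and 97.1 ± 7.42), but within their spread. The level of Cfl1 is also uncertain because of its pseudogenes. Coro1a averaged 52.7 ± 6.89 in NPC libraries, against 69.5 ± 9.19 in PBS libraries. Cotl1 was the lowest, at 25.3 ± 2.67 in NPC libraries and 37.4 ± 3.67 in PBS libraries. With the union of all exons as the length, Pfn1 in NPC libraries was at 112 and Lcp1 at 119, both below Arpc5 at 141. Tmsb4x and Actb remained the highest pair, and Arpc3 (26.9 in NPC and 31.6 in PBS libraries) came close to Cotl1 in NPC and lay below it in PBS libraries. The length used was that of the longest coding transcript, and single-end reads of amplified cDNA need not cover a transcript evenly.

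The rest of the actin machinery was split between lower and higher values. Of 116 further symbols in 11 classes, 93 were in the table. The newer symbols Mrtfa and Mrtfb are listed beside the older Mkl1 and Mkl2, under which these genes were found. No older symbol was tried for the other missing genes, among them Washc1 to Washc5, so these may be in the table under other names. Of the 93 genes found, 50 were lower and 43 higher in NPC libraries. Their median log2 fold change was -0.02, close to the 0.02 of all genes. The sign of that median changed without NPC A (0.02) and without PBS 2 (0.01). None passed at an adjusted p under 0.05 in either direction. At an unadjusted p under 0.05, 6 were lower and 1 higher, where 5.32% and 6% of all genes were. The groups did not overlap for Actg1 and Myl6 on the lower side, or for Wipf2, a partner of the Wiskott-Aldrich syndrome protein family, on the higher side, named because of this count (log2 fold change 0.21, SE 0.11). Over the whole table such groups made up 3.25% on the lower and 3.53% on the higher side.

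**Figure D3:**
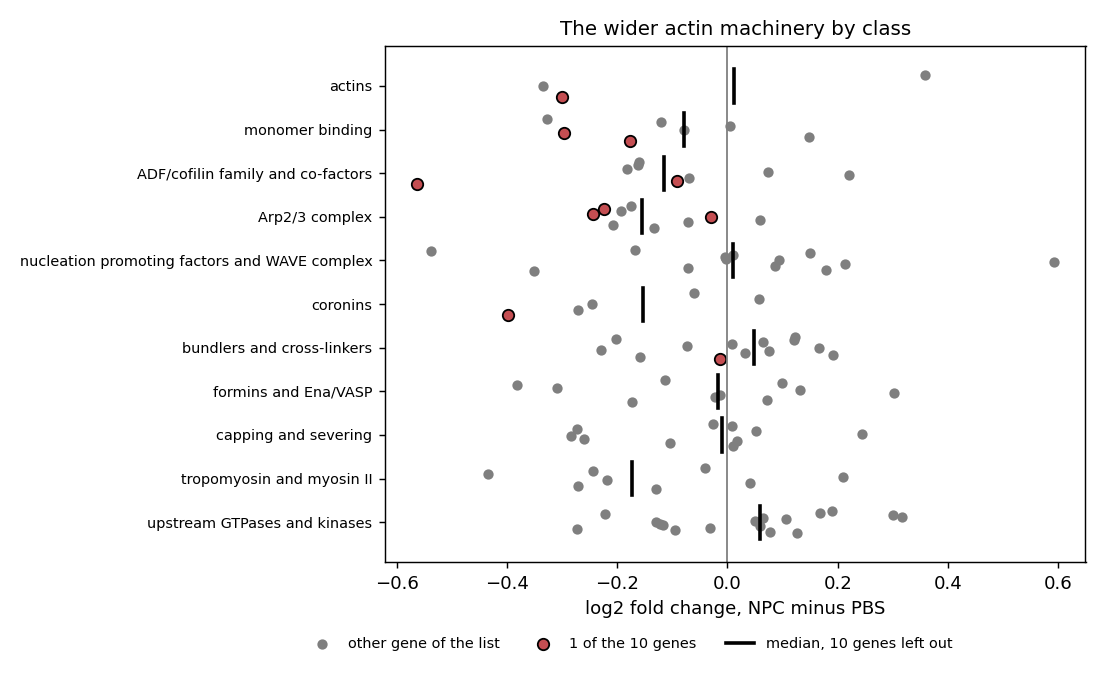
Log2 fold change, NPC minus PBS (horizontal axis), of each gene of 11 classes of the actin machinery (rows), with the 10 genes in red and the other 93 in grey; black bars give the class median without the 10. Class medians run from -0.17 (tropomyosin and myosin II) to 0.06 (upstream GTPases and kinases).

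The lowest class medians were those of the Arp2/3 complex, the coronins and tropomyosin with myosin II. In the Arp2/3 complex 5 of the 6 further genes were below 0 (median -0.15). Among them Actr3, an actin-related protein of the complex, had a log2 fold change of -0.21 (SE 0.15), and Arpc4 and Arpc5l had -0.19 and -0.18. These rested on few libraries: Actr3 was at -0.13 without NPC C, Arpc4 at -0.067 without NPC A and Arpc5l at -0.037 without NPC D. Of 4 further coronins 3 were below 0 (median -0.15), led by Coro1b (-0.27) and Coro1c (-0.25), with Coro7 at -0.06. Without NPC A and PBS 1 together Coro1b was at -0.13 and Coro1c at -0.12. Of 8 tropomyosin and myosin II genes 6 were below 0 (median -0.17). There Myl6, the essential light chain of non-muscle myosin II, averaged 4.73 ± 0.18 in NPC libraries, against 5.16 ± 0.13 in PBS libraries (log2 fold change -0.43, SE 0.13; n = 4 each), while Tpm3 and Myl12a had -0.27 and -0.24. Tpm3 was at -0.17 without PBS 1 and Myl12a at -0.16 without NPC A. The differences between these classes were not tested.

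Of 5 further genes that bind monomers 3 were below 0 (median -0.08), namely Twf2 (-0.33, SE 0.22), Twf1 (-0.12), both twinfilins, and Tmsb10 (-0.08). Of 6 further relatives and partners of cofilin 4 were below 0 (median -0.12). Gmfg, a leukocyte debranching factor, was at -0.18, and Wdr1, which helps cofilin to disassemble filaments, at -0.16. Dstn, which encodes destrin, another relative of cofilin, had a positive value (0.22, SE 0.17). Acta2, smooth muscle actin, rested on 4 to 25 reads per library (0.36, SE 0.41) and was at 0.089 without NPC B. Without PBS 1 Twf2 was at -0.13 and Dstn at 0.12, without PBS 4 Twf1 was at -0.045, and without PBS 3 Wdr1 was at -0.25.

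Nucleation promoting factors held both extremes. Brk1, the smallest subunit of the WAVE complex, averaged 6.42 ± 0.36 in NPC libraries, against 6.96 ± 0.15 in PBS libraries (log2 fold change -0.54, SE 0.16; n = 4 each). Was, the gene of the Wiskott-Aldrich syndrome protein that switches on Arp2/3 in blood cells, averaged 5.43 ± 0.21 in NPC libraries, against 5.78 ± 0.10 in PBS libraries (-0.35, SE 0.13). Nckap1, a WAVE subunit, was at 0.59 (SE 0.30) on 8 to 50 reads per library. Over the 13 genes of the class 6 were below 0, with a median of 0.01. Bundlers and cross-linkers other than Lcp1 had 4 of 12 below 0 (median 0.05), among them Flna (-0.23), the filamin A gene, and Tln1 (-0.20), the talin 1 gene, with Fermt3 at 0.12, or 0.027 without NPC D. Tln1 was at -0.12 and Nckap1 at 0.38 without NPC A and PBS 1 together. Formins and Ena/VASP proteins had 6 of 10 below 0 (median -0.02), with Vasp at -0.38 (SE 0.20), Inf2 at -0.31 and Fmnl1 at -0.17. Vasp was at -0.22 without NPC C, Inf2 at -0.10 without PBS 1 and -0.47 without NPC C, and Fmnl1 at -0.097 without NPC A. Capping and severing proteins had 5 of 10 below 0 (median -0.01), with Gsn (-0.28), Add1 (-0.27) and Capg (-0.26) the 3 with the smallest unadjusted p. Gsn was at -0.12 without PBS 1. Upstream GTPases and kinases had 7 of 17 below 0 (median 0.06). There Rock1 and Rock2, kinases that act below RhoA, were at 0.32 (SE 0.15) and 0.30 (SE 0.13), and Rhoa itself at -0.27 (SE 0.12). Without PBS 1 Rock1 and Rock2 were both at 0.19. With GC content and length corrected, Rock1 and Rock2 were at 0.09 and 0.08 and Rhoa at -0.33. No gene named from these classes passed over the table (limma, smallest adjusted p = 0.382).

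How the 10 genes varied from library to library within the groups does not depend on the difference by which they were picked. Each value was set against the mean of its own group, and the deviations were correlated over the 8 libraries. The mean Pearson r over the 45 pairs was 0.27, with a range of -0.30 to 0.94, and 9 pairs were below 0. Over all pairs of the 5852 genes with a mean log2 value of at least 4 the mean r was 0.01. Scaling to library size draws such a mean towards 0, so it is no yardstick for 10 chosen genes. The mean over the 10 genes rested largely on 1 library: it was 0.06 without NPC B, where the 10 genes lay on average 0.17 above their group mean, and 0.17 without NPC A, where they lay 0.14 below. The 10 genes thus did not move as 1 block.

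**Figure D4:**
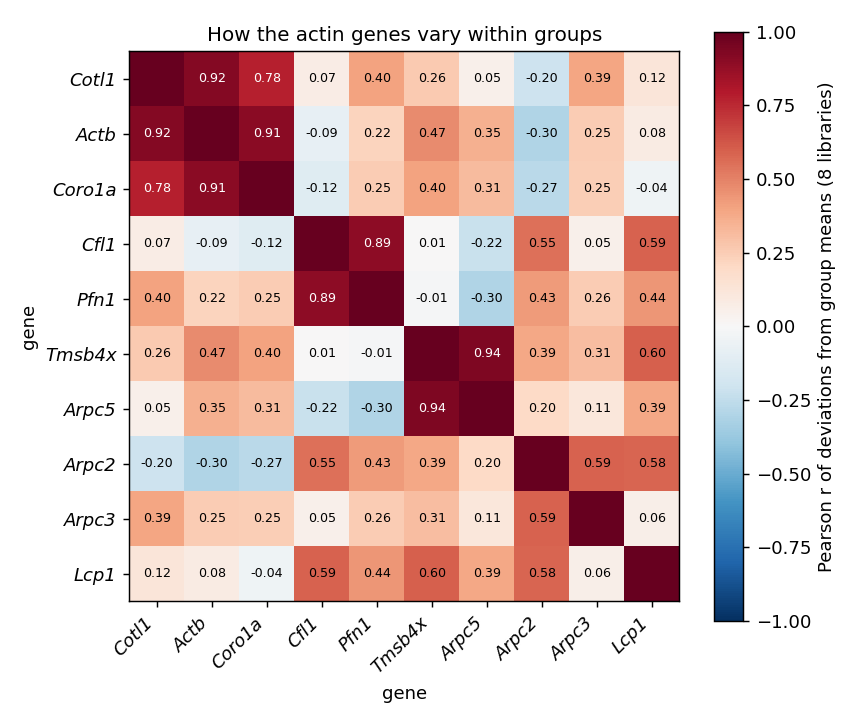
Pearson r (colour and number) between each pair of the 10 genes over 8 libraries, computed on deviations from the group mean. Cotl1, Actb and Coro1a form a block with r of 0.78 to 0.92, and Cfl1 with Pfn1 (0.89) and Tmsb4x with Arpc5 (0.94) form pairs whose r with that block is -0.12 to 0.47.

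Over all 8 libraries Cotl1 varied most closely with Actb (r = 0.92, Spearman rho = 0.81) and Coro1a (r = 0.78, rho = 0.60). Actb with Coro1a had r = 0.91 (rho = 0.88). All 3 were high in PBS 1 and NPC B and low in NPC D and PBS 4. Tmsb4x followed Arpc5 (r = 0.94, rho = 0.88), both being high in NPC B and low in NPC C and PBS 3. Cfl1 followed Pfn1 (r = 0.89, rho = 0.88), both being low in NPC A and PBS 3. For Cotl1 and Cfl1, which encode related proteins, r was 0.07, but -0.86 over the 6 libraries without NPC A and PBS 1. Without NPC A and PBS 1, r over the remaining 6 libraries was 0.92 for Cotl1 with Actb, 0.73 for Cotl1 with Coro1a, 0.88 for Actb with Coro1a and 1.00 for Tmsb4x with Arpc5, but 0.62 for Cfl1 with Pfn1. With the 2 libraries farthest from the median of the first gene left out, the values in the same order were 0.72, 0.43, 0.80, 0.87 and 0.57. In an exact two-sided permutation of libraries within groups (576 arrangements, n = 8) these 5 pairs had an unadjusted p of 0.0035 (Tmsb4x with Arpc5) to 0.0486 (Cotl1 with Coro1a). By Spearman rho the permutation p ran from 0.0104 to 0.172. After Benjamini-Hochberg adjustment over the 45 pairs 0 passed, the smallest adjusted p being 0.104 for r and 0.234 for rho. Cotl1 with Arpc3 had r = 0.39 over 8 libraries, but 0.88 without NPC A and PBS 1. With the 2 farthest libraries left out it was 0.72. Over the NPC libraries alone it was 0.96, and over the PBS libraries -0.97. Which genes lay nearest Cotl1 thus depended on the libraries used.

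Among 5842 other genes with a mean log2 value of at least 4, the deviations most like the mean of the 10 genes over 8 libraries were those of Clic1 (r = 0.97), a chloride intracellular channel gene. Xab2 (0.96), Fbxo42 (0.94), Cope (0.94), Pycard (0.93) and Scimp (0.93) followed, which encode a splicing factor, an F-box protein, a coatomer subunit, the inflammasome adaptor ASC and a membrane adaptor of antigen-presenting cells. Over the 6 libraries without NPC A and PBS 1 their r was 0.90 to 0.98. Most like Cotl1 alone were Slc35a4 (0.95), a solute carrier gene, Calm3 (0.93), 1 of the calmodulin genes, and Msrb1 (0.92), which encodes a methionine sulfoxide reductase. These are the highest of 5842 values, and no p is given for them. All were measured in the same libraries and so share their depth. Their transcript GC content ran from 45.6% (Pycard) to 58.3% (Calm3).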

How the data were processed

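The 8 libraries (4 NPC, 4 PBS) are RNA-seq of sorted dendritic cells. Per the labels' protocols, RNA had an integrity number of 8 or more and went through Ovation V2 amplification and 12 PCR cycles, followed by single-end reads of 150 bases. Trimmomatic, STAR 2.3.0, HTSeq 0.5.3, limma and the mm10 build are named per the submitters' processing notes. Which annotation, strand setting or low-expression filter was used is not given in the sources used here. The authors deposited log2 normalised expression, 1 column per library. On the linear scale each deposited value is a whole number plus 0.5, multiplied by 1 step per library; 100% came out whole within 0.01 of a read. Totals count PCR copies as reads, since these cannot be told from separate molecules. Counting error judged from the totals may therefore be too small.

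Groups came from the sample titles. All 12256 genes were fitted with limma 3.58.1 in R 4.3.3 on the deposited log2 values, with treatment as the only term and moderated variances with a mean-variance trend. Tests were two-sided with Benjamini-Hochberg adjustment over the table and a threshold of 0.05. GENCODE vM21 gave spans, transcript lengths and GC content; 11368 symbols (92.8%) matched 1 gene. Pseudogene matches were found with blastn 2.17.0. The 10 genes, the gene lists and the tests were chosen with earlier results of these data known. Genes named from the wider list are up to 3 per class by smallest unadjusted p, and like genes are ranked by Pearson r of deviations. Alternatives were other variance models, library weights, 3 other scalings, 2 filters on low values, a pseudocount of 1, voom weights, thinned reads, a spline correction for GC content and length, and libraries left out. The labels do not say whether any mice were shared between pools, so p-values measure the spread between these pools.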

Additional observations from a re-analysis of the deposited data

Results flagged for a closer look

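In 3 of 112 groups of 4 libraries, over the 56 genes named, 1 library lay apart from the other 3 by more than Dixon's 95% criterion allows, where chance flags about 1 in 20. None of the 10 actin filament assembly genes was among them. Tln1, the talin gene, was at 7.70 in NPC C and 7.42 to 7.45 in the other NPC libraries. Itgax, encoding CD11c, was at 7.5 in PBS 3, while the rest of that group lay at 7.33 to 7.35. Pycard, the gene of the adaptor ASC, was at 5.65 in PBS 3, while the rest lay at 5.97 to 6.01.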

How the results depend on the processing

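Cotl1 stayed below 0 in all 21 alternatives, from -0.62 to -0.40, and passed in none (limma adjusted p 0.134 to 0.753). The median of the 10 genes ran from -0.31 to -0.21, and 7 to 10 of them were below 0. Among the 10, signs changed for Lcp1 with thinned reads (0.0013) and without NPC A and PBS 1 together (0.042), where Cfl1 was at 0.064. With single libraries left out, Lcp1 log2 fold changes ran from -0.054 to 0.031, those of Cfl1 from -0.18 to 0.017 and those of Arpc2 from -0.084 to 0.049. Of the wider list, the Tmsb10 log2 fold change turned to 0.049 with library weights, 0.087 after the GC and length correction and 0.052 without NPC A and PBS 1 together, and the Coro7 log2 fold change to 0.013 with library weights. With single libraries left out, Tmsb10 ran from -0.21 to 0.029 and Coro7 from -0.12 to 0.014. The cause was not tested. The number of genes at an unadjusted p under 0.05 was 1387, 2139 with library weights, and 792 to 1846 with single libraries left out, the lowest without PBS 2. The 21 alternatives each called 0 genes over the table. After the GC and length correction the split at an unadjusted p under 0.05 was 363 higher and 738 lower in NPC, where it had been 735 higher and 652 lower. With quantile normalization it was 622 higher and 763 lower. The mean correlation among the 10 genes ran from 0.060 (without NPC B) to 0.37 with single libraries left out. Depth limits the low genes most: 6.81 to 22.4% of genes had under 10 reads in NPC libraries and 0.579 to 4.49% in PBS libraries. No paired analysis was possible because the NPC libraries carry letters and the PBS libraries numbers.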
